A study of Mus musculus with 6 samples.

Results

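The cytosolic ribosomal protein genes were examined in bulk RNA-seq of mDPCs, mouse dental papilla cells, the tooth mesenchyme from which odontoblasts differentiate. Members were chosen by a rule on name and biotype, set with earlier results of these data known. They are protein-coding genes of the deposited count table called Rps or Rpl with a number and at most a letter and a further digit. *Rplp0*, *Rplp1*, *Rplp2* and *Rpsa* were added. The rule found 82 of the 31613 genes of the table, 32 of the small subunit and 50 of the large subunit, and all 82 passed the filter on low counts. The cells were isolated at postnatal day 6 (P6) from Dmp1-Cre;Setd2fl/fl mice (cKO) and from control mice. In cKO mice a floxed *Setd2* is removed wherever the *Dmp1* promoter drives Cre (in molars the odontoblast layer, so other papilla cells keep the gene). Control mice are without that deletion. The study's methods give Setd2fl/fl mice on the C57BL/6J background as controls, while the sample labels call them wild type. Each group has 3 libraries, and 3 biological replicates were pooled into every library. The study's animal list gives 6 mice per genotype for this collection, so some pools of 1 group may share mice. The p-values reflect how far these libraries spread, which may in part be technical. In bulk RNA, a change in the make-up of the cells cannot be told apart from a change of RNA per cell.

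Ribosomal proteins wrap the ribosomal RNAs of the small subunit, which reads the mRNA, and of the large subunit, which joins the amino acids. They are needed in nearly equal amounts, and their mRNAs are among the most abundant of any cell. Most of these mRNAs begin with a C followed by a run of pyrimidines, the 5′ terminal oligopyrimidine (TOP) motif, through which the TOR pathway controls their translation together with that of several translation factors. In odontoblasts, which secrete large amounts of dentin matrix, this machinery serves a high output of collagen and phosphoproteins. The genes have many processed pseudogenes, intronless copies of their mRNAs, and reads that match several places were not counted.

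The libraries were of even depth, from 18557647 to 19210750 counts. *Setd2* itself had 102, 98.5 and 96.0 CPM (counts normalised to library size with edgeR's TMM factors) in cKO libraries 1, 2 and 3, against 98.0, 96.5 and 92.0 CPM in controls 1, 2 and 3, so its whole-gene count does not check the labels. The cKO replicate 3 library stood apart. It held 18381 counts of *Xist*, which is transcribed from the inactive X chromosome of female cells, against 5 to 14 counts elsewhere, and 0 counts of the Y-linked genes *Ddx3y*, *Eif2s3y*, *Kdm5d* and *Uty*, of which every other library held 270 or more. By these counts its mice were female and those of the other libraries male, so it shared no mice with the other cKO pools. The study's methods state that mice of the same sex were compared. All 12 odontoblast markers were detected, at 11563, 9166 and 57672 CPM in sum in cKO libraries 1, 2 and 3, against 99437, 100697 and 116660 CPM in controls. The 12 markers of dental mesenchyme lay at 4861 to 5635 CPM in cKO libraries, against 4920 to 5951 CPM in controls. The 12 markers of dental epithelium lay at 7246, 2330 and 50450 CPM in cKO libraries, against 7387, 2727 and 30572 CPM in controls, high in replicate 3 of both groups. No marker of these lists was at 0 in all libraries.

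The first transcribed bases of several members carry the TOP motif by which the family is known, so the region of the annotated start is shown for 6 of them and for 3 members without it. Each line gives 30 bases on the coding strand, 15 before the start and 15 from it, from RefSeq on GRCm38.p6, with the run of 5 or more pyrimidines that covers or lies nearest to the start in capitals.
Rps6 (chr4:86857353-86857382, minus strand): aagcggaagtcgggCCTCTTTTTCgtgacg
Rpl14 (chr9:120571502-120571531, plus strand): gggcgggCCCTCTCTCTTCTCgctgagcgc
Rplp2 (chr7:141447636-141447665, plus strand): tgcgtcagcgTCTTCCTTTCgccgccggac
Rps27 (chr3:90213634-90213663, minus strand): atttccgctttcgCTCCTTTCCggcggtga
Rpl38 (chr11:114668565-114668594, plus strand): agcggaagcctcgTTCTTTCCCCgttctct
Rps10 (chr17:27635230-27635259, minus strand): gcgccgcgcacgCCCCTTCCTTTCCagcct
Rps4x (chrX:102189377-102189406, minus strand): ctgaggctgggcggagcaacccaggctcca
Rpl3l (chr17:24727811-24727840, plus strand): gagtgttctagctctgtcatttgaCCTCTg
Rpl39l (chr16:10170213-10170242, plus strand): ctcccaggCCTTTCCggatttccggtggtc
The run covers the annotated start in the first 6 lines. *Rps4x* has no such run, that of *Rpl3l* begins inside the transcript, and that of *Rpl39l* ends on the last base before the start.

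A promoter sequence was at hand for 62 members. A C at the annotated start followed by 4 pyrimidines was found in 12 of them (19.4%), against 2.3% of all 13739 promoters of protein-coding genes, and the same letters within 10 bases of the start in 56.5% against 32.2%. On either strand of the window from 250 bases before the start to 50 after it, CCGGAAGT stood in 19.4% of the members' promoters and 6.5% of all, and ATGGCGGC in 6.5% and 3.9%. The letters GGGCGG stood in 59.7% of the members' promoters and 56.1% of all, and TATAAA in 9.7% and 9.2%. In the comparison of cKO with control below, the 12 members with the motif at the annotated start had a median log2 fold change of 0.34, and the 50 others with a promoter sequence had 0.35. Start sites differ between cell types, so the annotated start may not be the one used in mDPCs.

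Together the members took a larger share of the counts in every cKO library than in any control library. They made up 5.98%, 7.53% and 4.89% of all counts in cKO libraries 1, 2 and 3, against 4.70%, 4.71% and 4.32% in controls 1, 2 and 3. The mean was 6.13% ± 1.32 (SD, n = 3) in cKO and 4.57% ± 0.224 (SD, n = 3) in control mDPCs, a ratio of 1.34, and counting error was at most 0.012 percentage points to either side (95% Wilson interval). The cKO replicate 2 library was far above the rest, and cKO replicate 3 lay only a little above the 2 higher controls. The odontoblast markers above are abundant mRNAs, 8 of 12 of which edgeR called lower in cKO (2.71% of all genes were), and they are part of the total. With the 100 genes of highest mean count left out, of which 26 are members, the other members had 3.27% ± 0.686 of the remaining counts in cKO and 2.58% ± 0.108 in control libraries (SD, n = 3 each). Without the mitochondrially encoded genes in the total, the shares of all members were 6.35% ± 1.43 in cKO and 4.66% ± 0.245 in control libraries (SD, n = 3 each). The 77 mitochondrial ribosomal protein genes held 0.236% ± 0.0223 and 0.202% ± 0.0095 of the counts in cKO and control libraries (SD, n = 3 each), and the pseudogenes named after a member held 0.181% ± 0.0294 and 0.12% ± 0.00284 (SD, n = 3 each).

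**Figure D1:**
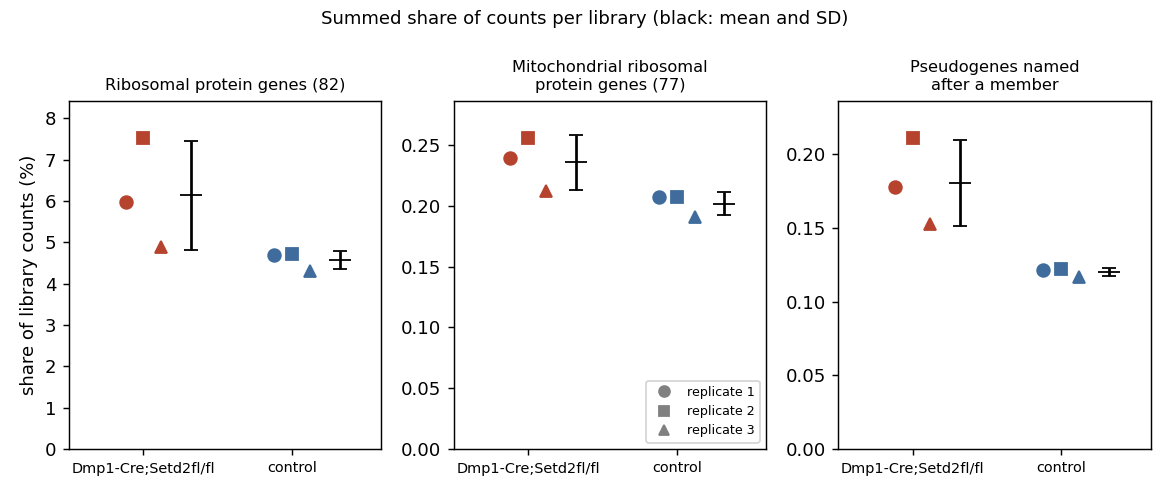
Share of all counts of a library, in percent, taken by the 82 ribosomal protein genes (left), the 77 mitochondrial ribosomal protein genes (middle) and the pseudogenes named after a member (right), in the 3 Dmp1-Cre;Setd2fl/fl libraries (red) and the 3 control libraries (blue). Shapes mark the replicate number and black bars the mean and SD; in the left panel the Dmp1-Cre;Setd2fl/fl libraries lie at 5.98%, 7.53% and 4.89%, all above the controls.

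Gene by gene, most of the family lay a little higher in cKO mDPCs, but no member passed the thresholds. Of the 82 members, 78 had a log2 fold change above 0 (52.6% of all 16519 genes tested did). Their median was 0.35, against 0.02 over all genes, and the quartiles were 0.28 and 0.41. The study's thresholds are a p under 0.05, unadjusted, with a log2 fold change beyond 0.58 either way. At these, edgeR's quasi-likelihood test called 0 members higher (1.1% of all genes were) and 0 lower (2.71%). At an unadjusted p under 0.05 alone it gave 18 members higher (3.17% of all genes) and 0 lower (4.41%), with log2 fold changes from 0.37 to 0.54 and unadjusted p from 0.0179 to 0.0492. That count of 18 depended on single libraries of both groups. It was 1 without control replicate 1 (1.06% of all genes), 0 without control replicate 2 (0.876%) and 11 without control replicate 3 (3.12%). Leaving out a cKO library gave 26 without replicate 1 (2.83%), 7 without replicate 2 (1.39%) and 52 without replicate 3 (9.88%). With p adjusted over all genes, at 0.05, edgeR called 0 members and 0 genes in all (0.0% in each direction), and the smallest adjusted p of a member by edgeR was 0.626. DESeq2 likewise called 0 members at the study's thresholds (1.28% of all genes higher, 2.71% lower) and 0 at an adjusted p under 0.05 (0.145% higher), with 26 higher at an unadjusted p under 0.05 (3.38%). Voom of limma with quality weights called 5 members higher at an adjusted p under 0.05 (2.4% of all genes), namely *Rps13*, *Rps6*, *Rpl14*, *Rps9* and *Rps23*. At the study's thresholds voom called 0 members higher (2.69%) and 2 lower, *Rpl3l* and *Rpl29* (6.67%).

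The groups did not overlap for 29 members. In 28, every cKO library lay above every control (7.26% of all genes), and for 1, *Rpl3l*, every cKO library lay below (7.98%). The small subunit had a median log2 fold change of 0.38 over 32 genes, with 31 above 0, and the large subunit 0.33 over 50 genes, with 47 above 0. Of the 18 members at an unadjusted p under 0.05, 9 belong to each subunit, and in 17 the groups did not overlap. The 4 members with a negative value were *Rps10*, *Rpl34*, *Rpl29* and *Rpl3l*, described below.

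**Figure D2:**
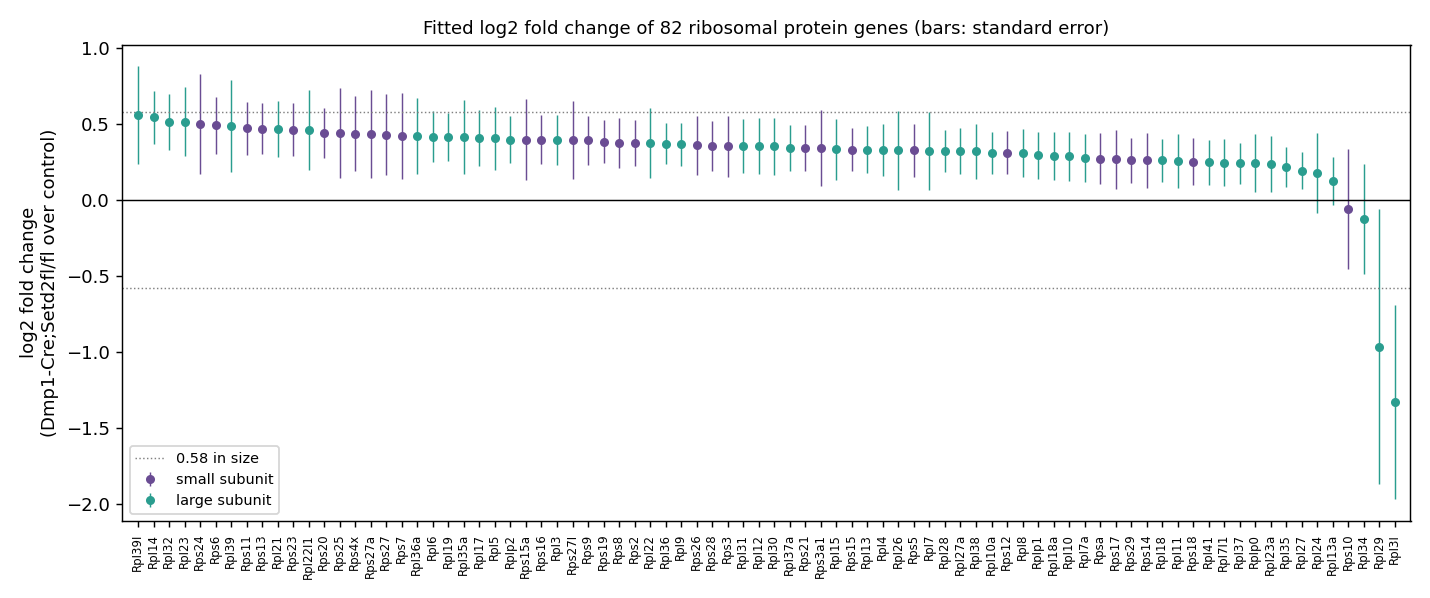
Log2 fold change (Dmp1-Cre;Setd2fl/fl over control) fitted by edgeR for each of the 82 members, ordered from highest to lowest, with bars for the standard error (SE), purple for the small and green for the large subunit. The dotted lines mark 0.58 in either direction; 78 of 82 points lie above 0, from *Rpl39l* at 0.56 down to *Rpl3l* at -1.33.

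The difference was not of 1 size in the 3 cKO libraries. Against the control mean, the median member lay 0.21, 0.64 and 0.11 higher on the log2 scale in cKO libraries 1, 2 and 3, and at -0.02, 0.01 and 0.00 in the controls. In cKO replicate 2, 80 of 82 members exceeded every control (35.83% of all genes did), and 78 had their highest level of all 6 libraries there. In cKO replicate 1, 60 members exceeded every control (28.31% of all genes), and in cKO replicate 3, 43 did (29.9%). The members varied more among cKO libraries, with a median coefficient of variation of 21.5% against 9.08% in controls, and 77 of 82 varied more in cKO libraries (69.88% of all genes did). Within replicate numbers, the median difference between cKO and control was 0.20, 0.65 and 0.15 for replicates 1, 2 and 3. With libraries of the same number set side by side, 72 members were higher in cKO all 3 times (22.7% of all genes). The data do not show that the libraries of numbers 1 and 2 are pairs.

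The calls therefore depended on which libraries were in the fit. Without cKO replicate 3, the median log2 fold change was 0.43 and edgeR called 19 members higher (4.01% of all genes) and 1 lower, *Rpl3l* (6.88%), at the study's thresholds, with 0 at an adjusted p under 0.05 (0.676% higher) and 52 higher at an unadjusted p under 0.05 (9.88%). Of the 19, 11 were of the small subunit. Without cKO replicate 2, the median was 0.15, edgeR called 0 members higher (0.49%) and 2 lower, *Rpl29* and *Rpl34* (1.66%), and 7 were higher at an unadjusted p under 0.05 (1.39%). With both replicate 3 libraries left out, 9 members were called higher (4.49%), 8 of them among the 19, and *Rpl3l* lower (7.55%), with 59 higher at an unadjusted p under 0.05 (12.7%). In that fit *Rpl22l1* alone passed an adjusted p of 0.05 (adjusted p = 0.0499 by edgeR, 2.33% of all genes higher). Blocked by replicate number, the median was 0.33, and edgeR called 0 members higher (2.05%) and 1 lower, *Rpl3l* (4.37%), with 0 at an adjusted p under 0.05 (0.176% higher) and 43 higher at an unadjusted p under 0.05 (8.32%). With library totals in place of TMM, edgeR called 3 members higher (1.66%), and the median of all genes moved to 0.10. In each of these fits at least 78 of 82 members had a log2 fold change above 0. The cKO replicate 2 library, where the members were highest, also had the lowest odontoblast sum (9166 CPM) and the highest sum of mitochondrially encoded genes (43329 CPM, against 23062 and 32083 CPM in cKO replicates 1 and 3 and 14827 to 21126 CPM in controls). The part of these in the result was not tested.

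Among small subunit proteins, *Rps14* (ENSMUSG00000024608) was the member with the most counts per kilobase of its canonical transcript, at 2638 CPM per kb in cKO and 2204 in control mDPCs. In CPM it had 1521, 1968 and 1330.1 in cKO libraries 1, 2 and 3, against 1366, 1451 and 1209 in controls. The groups overlapped, since cKO replicate 3 lay below controls 1 and 2 (log2 fold change 0.26, SE, the standard error, 0.18). *Rps4x* (ENSMUSG00000031320), encoded on the X chromosome, was among the 5 highest per kilobase, with 2139 CPM per kb in cKO and 1583 in control libraries. It had 1937, 2884 and 1532 CPM in cKO libraries, against 1665, 1670.1 and 1365 CPM in controls. Its log2 fold change was 0.43 (SE 0.25), and 0.62 without cKO replicate 3, where it was among the 19 called. The other X-linked members, *Rpl10*, *Rpl36a* and *Rpl39*, are in the same range, with a median of 0.43 for all 4.

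*Rps6*, the small subunit protein that S6 kinase phosphorylates downstream of TOR, had 1014, 1426 and 907 CPM in cKO libraries, against 770.4, 771 and 841 CPM in controls. Every cKO library lay above every control, by 0.49 on the log2 scale in the fit (SE 0.19, unadjusted p = 0.0343 and adjusted p = 0.638 by edgeR). *Rps27a* encodes a fusion of ubiquitin with a ribosomal protein and had 773, 1104 and 522 CPM in cKO libraries, against 677, 651 and 454 CPM in controls. Here replicate 3 was the lowest library of its own group on both sides, and the log2 fold change was 0.43 (SE 0.29). *Rps24*, which is mutated in some families with Diamond-Blackfan anaemia in humans, showed the same form, with 944, 1410.1 and 615 CPM in cKO libraries and 835, 773 and 496 CPM in controls (log2 fold change 0.50, SE 0.33). *Rpsa*, also known as the laminin receptor precursor, had 1443, 1943 and 1935 CPM in cKO libraries, against 1359.9, 1407 and 1643 CPM in controls. Unlike them it was not lowest in cKO replicate 3, and its log2 fold change was 0.27 (SE 0.17).

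In the large subunit, *Rplp0*, *Rplp1* and *Rplp2* form the acidic stalk that binds the elongation factors. *Rplp0* had 1982, 2633 and 2462 CPM in cKO libraries, against 1758, 1810.4 and 2426 CPM in controls, so control replicate 3 lay between cKO libraries (log2 fold change 0.24, SE 0.19). *Rplp1* had 1139.9, 1529.6 and 1159 CPM in cKO libraries, against 1014, 1022 and 1094 CPM in controls, without overlap (log2 fold change 0.29, SE 0.15). *Rplp2* had 332, 441 and 386 CPM in cKO libraries, against 267, 272 and 343 CPM in controls, and had an unadjusted p of 0.0397 by edgeR (log2 fold change 0.40, SE 0.16). Per kilobase of the canonical transcript, *Rplp1* had 2333 CPM per kb in cKO and 1907 in control libraries, *Rplp0* 1728 and 1464, and *Rplp2* 397 and 302. The lengths used were 547, 1365 and 973 bases for *Rplp1*, *Rplp0* and *Rplp2*. The transcript present in mDPCs may be of another length, so values and ranks per kilobase depend partly on this choice. *Rpl41*, the smallest and most basic ribosomal protein, was the fifth member by this measure, with 1685 CPM per kb in cKO and 1421 in control libraries. Of the 100 genes of the whole table with the most counts per kilobase, 49 were members.

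*Rpl5* and *Rpl11*, which carry the 5S ribosomal RNA and, outside the ribosome, bind the p53 inhibitor Mdm2, differed in their overlap. *Rpl5* had 1161, 1663 and 1028 CPM in cKO libraries, against 1041, 1034 and 837 CPM in controls (log2 fold change 0.40, SE 0.21). *Rpl11* had 613, 852 and 609 CPM in cKO libraries, against 616, 630.2 and 494 CPM in controls (log2 fold change 0.25, SE 0.18). For *Rpl11* only cKO replicate 2 lay above all controls, and for *Rpl5* only cKO replicates 1 and 2 did. *Rpl38*, which in mice is needed for the translation of some Hox mRNAs, had 176, 249 and 156 CPM in cKO libraries, against 153, 155 and 158 CPM in controls, with cKO replicate 3 inside the control range (log2 fold change 0.32, SE 0.18).

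The members with the highest log2 fold changes, apart from *Rpl39l* and *Rps24*, were *Rpl14*, *Rpl32* and *Rpl23*. *Rpl14* (ENSMUSG00000025794) lies on chromosome 9 from 120571444 to 120574654, in the coordinates of the deposited table, which match GRCm38. It had 519, 763 and 532 CPM in cKO libraries, against 395, 400.4 and 452 CPM in controls, and the log2 fold change of 0.54 (SE 0.18) had the smallest unadjusted p of any member (0.0179 by edgeR, adjusted p = 0.626). *Rpl32*, a gene often used as a reference in RT-qPCR, had 556, 825 and 544 CPM in cKO libraries, against 428, 450.4 and 470.1 CPM in controls (log2 fold change 0.51, SE 0.18). Neither gene overlapped between groups. *Rpl23*, which also binds Mdm2, had 568, 845 and 471 CPM in cKO libraries, against 482, 455 and 383 CPM in controls (log2 fold change 0.51, SE 0.23), and cKO replicate 3 fell between controls 1 and 2.

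Several ribosomal proteins have a second gene that makes a close relative, often in other tissues. *Rpl3l*, known from heart and skeletal muscle, had 5, 1 and 10 counts in cKO libraries, against 12, 11 and 16 counts in controls. All cKO libraries lay below all controls, but at fewer than 20 counts a library (log2 fold change -1.33, SE 0.64, unadjusted p = 0.0751 by edgeR). Blocked by replicate number its log2 fold change was -1.40 (unadjusted p = 0.0208, adjusted p = 0.214 by edgeR), which passed the study's thresholds. Its widely used relative *Rpl3* had 1347, 1843 and 1349 CPM in cKO libraries, against 1091, 1145 and 1224 CPM in controls, without overlap, with a log2 fold change of 0.39 (SE 0.16).

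*Rpl39l*, known from the testis, had 13.6, 20.5 and 9.50 CPM in cKO libraries, against 10.4, 12.1 and 7.14 CPM in controls. Its relative *Rpl39*, on the X chromosome, had 438, 675 and 305 CPM in cKO libraries, against 388, 366 and 261 CPM in controls. Both were lowest in replicate 3 of each group and highest in cKO replicate 2, and had log2 fold changes of 0.56 (SE 0.32) and 0.48 (SE 0.30). *Rpl22l1* had 36.8, 48.8 and 23.7 CPM in cKO libraries, against 27.9, 29.5 and 22.2 CPM in controls (log2 fold change 0.46, SE 0.26). *Rpl22*, which in mice holds down *Rpl22l1*, had 368, 515 and 285 CPM in cKO libraries, against 331, 317 and 253 CPM in controls (log2 fold change 0.37, SE 0.23). The pair moved in the same direction in all 3 replicate numbers. *Rps27l*, which in several mouse and human cells is a target of p53, had 65.4, 85.6 and 45.6 CPM in cKO libraries, against 57.6, 54.4 and 37.9 CPM in controls (log2 fold change 0.39, SE 0.26). *Rps27* had 332, 479 and 234 CPM in cKO libraries, against 287, 278 and 212 CPM in controls, a log2 fold change of 0.43 (SE 0.27).

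*Rpl7l1*, whose product acts in assembly of the large subunit, had 109, 129.9 and 88.1 CPM in cKO libraries, against 92.5, 97.5 and 85.9 CPM in controls (log2 fold change 0.24, SE 0.15), and *Rpl7* had 1529, 2020.1 and 1086 CPM in cKO libraries, against 1418, 1319.5 and 974 CPM in controls (log2 fold change 0.32, SE 0.26). In both, cKO replicate 3 lay within the range of the controls. *Rpl36a*, on the X chromosome, had 389.6, 546 and 285 CPM in cKO libraries, against 343, 322 and 249 CPM in controls (log2 fold change 0.42, SE 0.25). Its autosomal copy *Rpl36al* had 22, 11 and 18 counts in cKO libraries, against 17, 15 and 21 counts in controls, with overlap. *Rps4l*, which the table lists as a transcribed pseudogene of *Rps4x*, had 65.1, 65.8 and 62.7 CPM in cKO libraries, against 47.4, 54.7 and 67.1 CPM in controls (log2 fold change 0.19, SE 0.14). Reads shared within a pair were not counted, so these levels hold only the reads that told the 2 genes apart.

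*Rpl29* had the widest spread of any member in cKO libraries. It encodes a large subunit protein also described as a heparin-binding protein of the cell surface and lies on chromosome 9 from 106429454 to 106431568. It had 69.2, 219 and 9.45 CPM in cKO libraries 1, 2 and 3 (1447, 4136 and 174 counts), against 188, 195 and 199.7 CPM in controls (3535, 3704 and 3523 counts). The controls were alike, cKO replicate 2 was a little above them, cKO replicate 1 was well below, and cKO replicate 3 was 20.5-fold below the mean of the controls. With this spread the log2 fold change of -0.97 had a SE of 0.90 (unadjusted p = 0.323, adjusted p = 0.790 by edgeR). Its coefficient of variation in cKO libraries, 109%, was the largest of the 82 members. Without cKO replicate 3 its log2 fold change was -0.43 (unadjusted p = 0.399 by edgeR), and without cKO replicate 2 it was -2.30 (unadjusted p = 0.0296 by edgeR). It was -1.74 when blocked by replicate number (unadjusted p = 0.324 by edgeR) and -1.49 by voom (unadjusted p = 0.0351 by limma). *Rpl29* starts 4103143 bases from the start of *Setd2* on the same chromosome. Of the 22 other genes tested within 500000 bases of *Rpl29*, 0 were called higher (1.1% of all genes) and 0 lower (2.71%). At these shares, 22 genes are too few for the counts of 0 to tell them from other genes. In cKO replicate 3 *Rpl29* was at -4.35 against the mean of the controls on the log2 scale, and the lowest of those 22 neighbours, *Tlr9*, was at -1.46.

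The copies of *Rpl29* differed among themselves. *Gm8210*, a processed pseudogene matched to it on chromosome 1, had 57.3, 54.0 and 71.8 CPM in cKO libraries, against 28.3, 28.0 and 32.1 CPM in controls, without overlap (log2 fold change 1.05, SE 0.14, unadjusted p = 1.34e-04 and adjusted p = 0.441 by edgeR). Blocked by replicate number, the fit gave an adjusted p of 0.0167 by edgeR (log2 fold change 1.04). *Gm10709*, a copy on chromosome 9, had the order of *Rpl29* among the cKO libraries but not among the controls, with 77, 211 and 4 counts in cKO libraries, against 177, 174 and 249 counts in controls. Added up with its 27 matched copies, *Rpl29* had 166, 341 and 114 CPM in cKO libraries, against 259, 266 and 279 CPM in controls, with a log2 fold change of -0.37. Neither pseudogene is a member, and both were chosen after their values were seen.

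*Rpl34* and its pseudogene *Rpl34-ps1* did not follow the same order. *Rpl34* lies on chromosome 3 from 130726831 to 130730398 and had 257, 479 and 169 CPM in cKO libraries, against 352, 356 and 279 CPM in controls (log2 fold change -0.12, SE 0.36). As for *Rpl29*, cKO replicate 2 was the highest and cKO replicate 3 the lowest of the 6 libraries. *Rpl34-ps1*, on chromosome 6, had 221, 192 and 224 CPM in cKO libraries, against 67.4, 66.4 and 49.6 CPM in controls. Its log2 fold change of 1.80 (SE 0.15) had the smallest unadjusted p of all 16519 genes tested (7.29e-06, adjusted p = 0.120 by edgeR). Blocked by replicate number, the fit gave an adjusted p of 0.00476 by edgeR (log2 fold change 1.80). The pseudogene held 46.3%, 28.6% and 56.9% of the sum of both genes in cKO libraries, against 16.1%, 15.7% and 15.1% in controls. Among cKO libraries the share was highest where *Rpl34* was lowest, but *Rpl34* is itself part of the sum. Among controls, replicate 3 had both the lowest *Rpl34* and the lowest share. With all 6 matched copies added, *Rpl34* had 491, 688 and 403 CPM in cKO libraries, against 434, 437 and 342 CPM in controls, and its log2 fold change turned to 0.38 (unadjusted p = 0.119 by edgeR), within the quartiles of the family.

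*Rps10* likewise depended on its copies. The gene itself had 65, 70 and 124 counts in cKO libraries, against 70, 68 and 121 counts in controls, while *Rps10-ps2*, an intronless copy which, like *Rpl34-ps1*, was chosen after its values were seen, had 3803, 4505 and 2827 counts in cKO libraries, against 2763, 2762 and 2694 counts in controls. The copy held 95.7% or more of the sum of both in every library. Alone *Rps10* had a log2 fold change of -0.06 (SE 0.39), and with its 6 matched copies 0.37 (unadjusted p = 0.0617 by edgeR). Copies were matched to 75 of the 82 members, 707 in all, and their counts were added to their members in 1 fit. In that fit 80 members had a positive log2 fold change, the median was 0.35, and *Rpl29* and *Rpl3l* were left below 0.

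**Figure D3:**
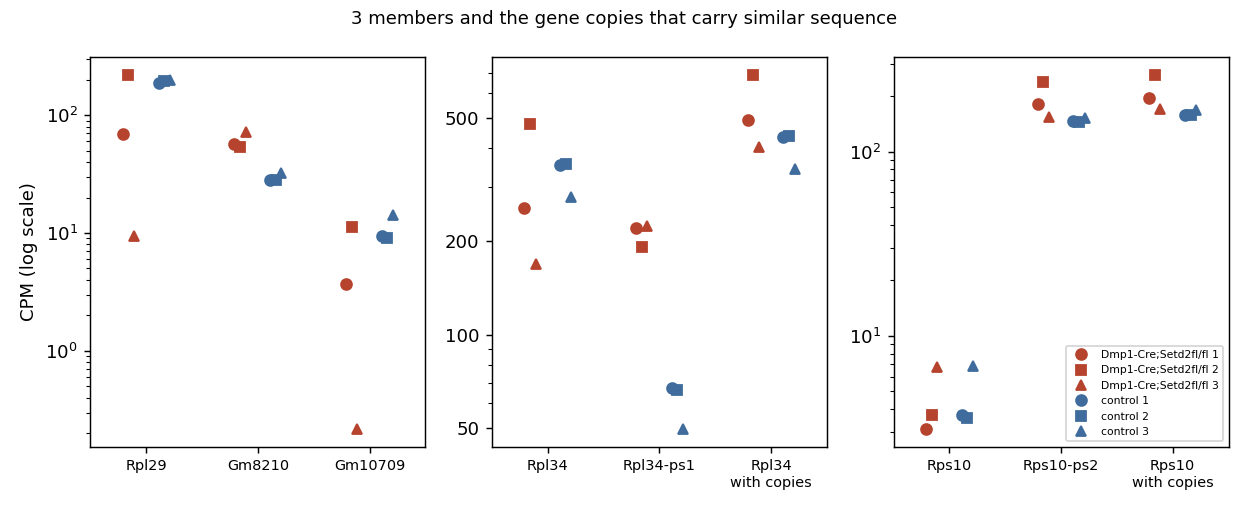
CPM on a log axis of *Rpl29* with its copies *Gm8210* and *Gm10709* (left), *Rpl34* with *Rpl34-ps1* and the sum of *Rpl34* with all its copies (middle), and *Rps10* with *Rps10-ps2* and the sum with all its copies (right). Red points are the Dmp1-Cre;Setd2fl/fl libraries and blue points the controls, with the shape for the replicate number; *Rpl29* spans 9.45 to 219 CPM in red against 188 to 199.7 CPM in blue, and *Rpl34-ps1* lies at 192 to 224 CPM in red against 49.6 to 67.4 CPM in blue.

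A few further members were counted mainly in their copies. *Rpl24* had 26, 24 and 20 counts in cKO libraries, against 22, 21 and 16 counts in controls, and 67.8% of its sum with 5 copies lay in the copies. *Rpl23a* had 84.6% of its sum in 19 copies and *Rpl21* 66.8% in 46 copies. *Rpl21* had a log2 fold change of 0.46 (SE 0.18) alone and 0.40 with its copies. *Rpl13a* was not counted mainly in copies, with 12.5% of its sum in 2 copies. In human cells its product is phosphorylated and leaves the ribosome after interferon-gamma. *Rpl13a* had 10.7, 12.8 and 13.3 CPM in cKO libraries, against 12.04, 11.3 and 10.5 CPM in controls, with overlap. Its log2 fold change was 0.12 (SE 0.16). The 8 members with a mean under 1000 counts had a median log2 fold change of 0.20, against 0.35 for the 74 others, while the 4369 genes of at least 1000 mean counts in the whole table had a median of 0.03.

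Replicate 3 differed from replicates 1 and 2 in a way that followed the base composition of the transcript. Over the 79 members with a mean above 200 counts, the deviation of replicate 3 from the mean of replicates 1 and 2 rose with the percentage of G and C in the transcript, with Spearman's rho of 0.56 in cKO and 0.59 in control libraries (Pearson's r 0.29 and 0.56). All these points share the same 6 libraries. Over the 10327 genes of the table above that level, rho was 0.44 in cKO and 0.41 in controls. The 27 members of lowest GC content (39.96% to 49.0%) were lower in replicate 3 by a median of 0.56 in cKO and 0.29 in control libraries on the log2 scale. The 26 members of highest GC content (53.04% to 58.76%) deviated by medians of -0.08 in cKO and 0.13 in controls. The log2 fold change between cKO and control was 0.40, 0.37 and 0.31 in the members of low, middle and high GC content, against 0.11, 0.02 and -0.03 for all genes in the same GC ranges. Members thus lay above the other genes in each range. With a correction for GC content in each library, the median of the members was 0.37, and edgeR called 1 member higher, *Rpl32* (1.08% of all genes). Blocked by replicate number as well, that fit called 0 higher (1.97%).

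**Figure D4:**
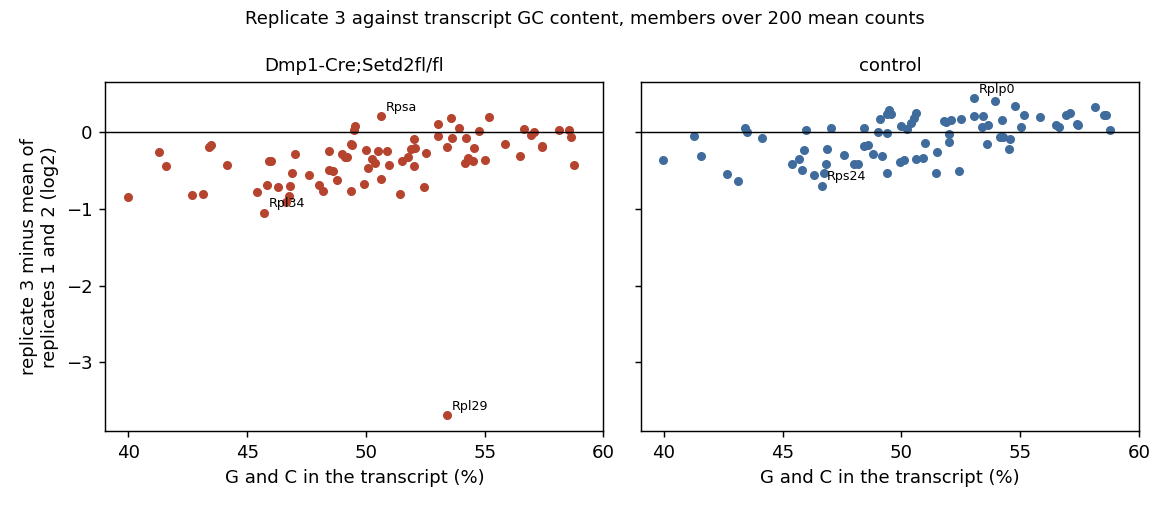
Deviation of replicate 3 from the mean of replicates 1 and 2 (log2 units) against the percentage of G and C in the transcript, for the 79 members with a mean above 200 counts, in Dmp1-Cre;Setd2fl/fl (left, red) and control libraries (right, blue). Points rise from left to right in both panels (Spearman's rho 0.56 and 0.59), and *Rpl29* lies far below the others in the left panel.

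Genes that work with the ribosomal proteins were described from lists that hold no member. A list of 16 translation factors and other genes whose mRNAs also carry TOP motifs had a median log2 fold change of 0.35, equal to that of the ribosomal proteins. All 16 lay above 0 (52.6% of all genes did). Of these 1 was called higher at the study's thresholds (1.1% of all genes) and 0 lower (2.71%). That 1 was *Pabpc1*, the cytosolic poly(A)-binding protein (log2 fold change 0.61, SE 0.22, adjusted p = 0.626 by edgeR). *Btf3* and *Nap1l1*, which are not themselves translation factors, had log2 fold changes of 0.49 (SE 0.18) and 0.47 (SE 0.19). In cKO libraries 1, 2 and 3 the median of this list lay 0.24, 0.68 and 0.10 above the mean of the controls, in the order of the ribosomal proteins. Of 6 ribosome partners outside the name rule, 0 were called higher (1.1% of all genes) and 0 lower (2.71%). *Fau*, whose product is a ubiquitin-like fusion with a small subunit protein, had a log2 fold change of 0.39 (SE 0.15). That of the scaffold protein gene *Rack1* was 0.32 (SE 0.16). The 32 genes of ribosome assembly and rRNA processing had a median of 0.20. Of these, 29 lay above 0 (52.6% of all genes), 0 were called higher (1.1%) and 0 lower (2.71%). Among them were *Ncl*, for nucleolin (0.42, SE 0.16), and *Fbl*, for the rRNA methyltransferase fibrillarin (0.33, SE 0.12).

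The polymerases and the regulators stood nearer to the rest of the table. The 23 genes of RNA polymerases I and III and their factors, which make the ribosomal RNAs, had a median of 0.05. Of these, 14 lay above 0 (52.6% of all genes did), 1 was called higher (1.1%) and 0 lower (2.71%). The gene called was *Myc*, a transcription factor that drives ribosome production, at a log2 fold change of 0.58 (SE 0.23, adjusted p = 0.647 by edgeR). The 20 genes of the TOR pathway and of the control of translation had a median of -0.04. Of these, 9 lay above 0 (52.6% of all genes), 0 were called higher (1.1%) and 0 lower (2.71%). The smallest p was that of *Eif2ak3*, the kinase that slows translation when unfolded protein accumulates in the endoplasmic reticulum (log2 fold change -0.50, SE 0.18, unadjusted p = 0.0301 by edgeR). At the shares above, both lists are too short for their calls to tell them from other genes. Markers of macrophages and neutrophils, 12 of 12 detected, summed to 1342, 1720 and 478 CPM in cKO libraries, against 936, 1033 and 603 CPM in controls. They were highest in cKO replicate 2 and low in replicate 3 of both groups, and their part in the result was not tested.

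**Figure D5:**
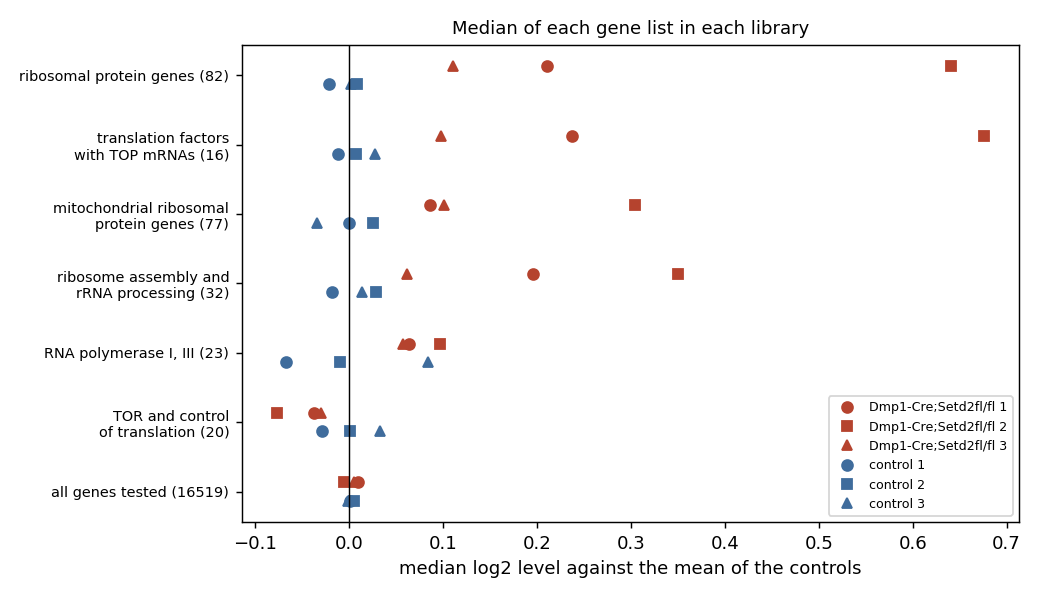
Median log2 level of each gene list, set against the control mean, in each Dmp1-Cre;Setd2fl/fl library (red) and control library (blue), with the number of genes in brackets and the replicate number by shape. Ribosomal proteins (0.21, 0.64 and 0.11) and the list of translation factors and other genes with TOP mRNAs (0.24, 0.68 and 0.10) lie in the same order in Dmp1-Cre;Setd2fl/fl libraries 1, 2 and 3. All genes together lie near 0.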

How the data were processed

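Bulk RNA-seq of 3 Dmp1-Cre;Setd2fl/fl and 3 control mDPC libraries was analysed. Per the methods, the authors used HISAT2 for alignment and HTSeq for counting, ignoring strand and requiring a mapping quality of 10; the deposited table holds whole-number counts for 31613 genes. Its other columns, the authors' own DESeq2 comparison (mean signal of normalized counts, fold change as a ratio, log2 fold change and p-values), were deposited beside them and not used. Per the labels the build is GRCm39, but 8814 (50.6%) of 17411 protein-coding symbols share a start or end with RefSeq GRCm38.p6, which the positions follow.

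Counts were fitted across all 16519 genes passing filterByExpr (minimum count 10) by edgeR 4.0.16 in R 4.3.3 (TMM, robust quasi-likelihood F test, Benjamini-Hochberg over all of them), with limma 3.58.1 and DESeq2 1.42.0 as alternatives. Group contrasts are Dmp1-Cre;Setd2fl/fl over control. CPM values use TMM-scaled library sizes. CPM per kb and GC content use the canonical transcript of GENCODE, and medians against the mean of the controls use log2(CPM + 0.1). Replicate differences and the deviations of replicate 3 use log2(CPM + 0.1) as well. The correlations of deviations from group means and the GC correction use log2 CPM with a prior count of 2. At 18557647 to 19210750 counts a library, replicate spread exceeds counting error (common dispersion 0.064), except for members of few counts. Intervals cover counting error only. No 2 libraries were alike within sampling noise, and the fits were tested on simulated data.

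Members and gene lists were chosen with earlier results of these data known. SE is the standard error of a log2 fold change. Named members are the 5 highest and 5 lowest log2 fold changes, the 5 highest per kilobase, all called members (none), the stalk, 5S and other set genes, and pairs with a close relative; of lists, up to 3 genes with the smallest p. Alternatives were other scalings, filters and tests, the block, added pseudogenes and each library left out; leaving out both replicate 3 libraries, adding all matched copies and a GC correction were chosen after seeing the data. Copies are pseudogenes that the table names after a member or describes by its protein accession. Replicate numbers come from the labels. Deviations from group means correlated at 0.453, 0.465 and 0.663 within numbers 1, 2 and 3, and the numbers were taken as pairs. However, Dmp1-Cre;Setd2fl/fl replicate 1 and control replicate 2 correlated at 0.455, and Dmp1-Cre;Setd2fl/fl replicate 2 and control replicate 1 at 0.380. Deviations cancel out within a group, so a replicate 3 that stands apart in both groups makes replicates 1 and 2 correlate across groups. These values thus do not show that numbers 1 and 2 are pairs, and number 3 sets a female pool beside a male pool. The blocked fits rest on this pairing.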

Additional observations from a re-analysis of the deposited data

How the results depend on the processing

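The counts of 0 members higher, 0 lower and 0 at an adjusted p under 0.05 at edgeR's main settings held with DESeq2, RLE size factors, TMM factors without members, pseudogenes and mitochondrially encoded genes, the strict filter (1 member, *Rpl3l*, not tested) and added pseudogenes. Library totals with no scaling factor gave 3 higher (*Rpl14*, *Rpl32*, *Rpl23*) and the GC content offset 1, *Rpl32*. No filter on low counts gave 1 lower, the replicate block 1, and the GC content offset with replicate block 1, each time *Rpl3l*; with the GC content offset the block also ended the call of *Rpl32*, and it changed no other count of members at the study's thresholds. Voom gave 2 lower (*Rpl3l*, *Rpl29*) and 5 at an adjusted p under 0.05. Without both replicate 3 libraries there were 9 higher, 1 lower and 1 at an adjusted p under 0.05. With each library left out in turn, higher members ranged from 0 to 19, lower from 0 to 2, those at an adjusted p under 0.05 stayed at 0, and the median log2 fold change ranged from 0.15 to 0.43. The median was 0.24 to 0.44 under all other settings. The cause of these differences was not tested. The difference in summed share of counts was 1.56 percentage points, a ratio of 1.341. It was 1.695 without mitochondrially encoded genes in the total (ratio 1.364) and 1.62 with pseudogenes added (ratio 1.345). The members outside the 100 highest genes are a smaller set over a smaller total. They differed by 0.691 percentage points of the remaining counts, a ratio of 1.268.

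Near 0, signs turned. *Rps10* was at 0.0052 with no scaling factor, 0.0124 with the GC content offset, 0.0112 with that offset and the block, 0.37 with named or all copies added, and -0.47 to 0.30 with single libraries left out. *Rpl34* was at 0.40 with named and 0.38 with all copies added, 0.0612 without both replicate 3 libraries, and -0.63 to 0.16 with single libraries left out. By voom, *Rpl13a* was at -0.0475 and *Rpl36al* at 0.22, and *Rpl36al* ranged from -0.29 to 0.0824 with single libraries left out. Members of few counts (*Rpl3l*, *Rpl24*) are limited by depth.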

Other observations

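The mitochondrial ribosome has its own set of nuclear genes, and these lay less high than the cytosolic set. Of 77 genes tested, 67 had a log2 fold change above 0 (52.6% of all genes did), with a median of 0.18. At the study's thresholds edgeR called 1 higher (1.1% of all genes) and 0 lower (2.71%). That 1 was *Mrps6* (log2 fold change 0.63, standard error 0.16, adjusted p = 0.615 by edgeR). In Dmp1-Cre;Setd2fl/fl libraries 1, 2 and 3 the median of this list lay 0.09, 0.30 and 0.10 above the mean of the controls. The mitochondrially encoded genes differed by more, with 7 of 10 called higher (1.1% of all genes), 0 lower (2.71%) and a median log2 fold change of 0.94.

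Of 11 genes of p53 and its targets tested, 7 had a log2 fold change above 0 (52.6% of all genes did), with a median of 0.07. At the study's thresholds 0 were called higher (1.1%) and 0 lower (2.71%). At these shares, 11 genes are too few for the counts of 0 to tell them from other genes. *Trp53inp1*, a stress-induced p53 target, had the smallest p (log2 fold change 0.32, standard error 0.13, unadjusted p = 0.0434 by edgeR). The median of the list lay 0.03 below the mean of the controls in Dmp1-Cre;Setd2fl/fl libraries 1 and 2 and 0.33 above it in library 3, against -0.08, -0.05 and 0.12 in controls 1, 2 and 3.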
